A study of Mus musculus with 32 samples.

Results

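The comparison described here asks which genes responded to T0901317 differently after passage 0 than at passage 0 in mouse embryonic stem cells. Treated cells (NrESC) and untreated cells (ESC) were each sampled at passages 0, 2 and 4 with 2 libraries, so 12 of the 32 libraries of the series enter it. For each gene the quantity is an interaction on the log2 scale: the mean change of NrESC from passage 0 to passages 2 and 4 (4 libraries against 2), minus the same change in ESC (4 against 2). Above 0, the gene rose more, or fell less, in NrESC. Each interaction is followed by its standard error (SE) after the ± sign. All 12 libraries are polyadenylated RNA from E14, an established wild-type line kept on gelatin with serum and LIF. Both arms carried 3 µM CHIR99021, which inhibits GSK3, and 1 µM PD0325901, which inhibits MEK. The NrESC medium held 10 µM of T0901317 in addition, which activates the liver X receptors (LXR). NrESC of passage 0 is already labelled as treated, and the length of that treatment is not stated in the labels. Nothing in the labels tells if both libraries of a group stem from different cultures, so the p-values of the model over libraries measure only how far such libraries differ, which may be technical. Each arm is a single series of passages of one cell line.

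LXRs are nuclear receptors that pair with the retinoid X receptors, sense oxysterols and switch on cholesterol export and fatty acid synthesis genes, while SREBP2, which SCAP and the INSIG proteins hold back when membrane sterol is high, drives the enzymes of cholesterol synthesis. Cultures of mouse embryonic stem cells hold a small and changing share of cells that switch on genes of the 2-cell embryo, the Zscan4 cluster among them. In bulk RNA, fewer cells of a kind and less RNA per cell cannot be told apart.

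The 12 libraries held 25062538 to 46266628 counts. Libraries of the same group differed with a median SD of 0.049 to 0.0578 log2 over genes, above counting noise in every group, and no library was a copy of another. All 12 embryonic stem cell markers were present (lowest count 1586, for Utf1), and their summed level was 7850 to 8780 CPM (counts scaled by library size) in ESC and 7660 to 9120 in NrESC. Of 12 fibroblast markers, Lum had 0 counts in every library, Col3a1, Dcn and Postn at most 3 and Acta2 at most 9. Others were present in every library: Vim (3265 to 8816 counts), Pdgfrb (604 to 1074), Fbn1 (145 to 539), Thy1 (56 to 150), Col1a1 (46 to 108) and Col1a2 (20 to 77). The sum of the list, 1780 to 2160 CPM, rested mostly on Fn1, which stem cells also express. Abca1, an LXR target that exports cholesterol, stood at 34.8 and 35.7 CPM at passage 0, then 37.2 and 38.1 at passage 2 and 48.9 and 50.1 at passage 4 in ESC, and at 342 and 351 CPM at passage 0, then 413 and 406 at passage 2 and 421 and 415 at passage 4 in NrESC. Its treatment effect was 3.30 at passage 0 and 3.26 over passages 2 and 4, with an interaction of -0.042 ± 0.0449 and an adjusted p of 0.552.

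In the model over libraries, the treatment effect changed after passage 0 for 3382 of 15036 genes tested at an adjusted p under 0.05 (22.5%). The interaction was above 0 for 1647 genes (11%) and below 0 for 1735 (11.5%). Most of these changes were small: their median size was 0.26 log2, and 58 genes above 0 and 152 below 0 reached 2-fold. Tested at each passage on its own against passage 0, the effect rose for 947 genes (6.3%) and fell for 1076 (7.16%) at passage 2, and rose for 1905 (12.7%) and fell for 1976 (13.1%) at passage 4. Between passage 2 and passage 4, a contrast in which the libraries of passage 0 do not enter, the treatment effect rose for 902 genes (6%) and fell for 851 (5.66%). Of the 3382 genes, 691 were called in that step in the direction of their interaction and 104 against it.

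A second way of testing gave no call. The counts of the 2 libraries of each group were summed, and the spread between passages took the place of the spread between libraries. The edgeR quasi-likelihood test then called 0 genes in either direction (5 residual degrees of freedom, smallest adjusted p 0.772). There 646 genes (4.3%) had an unadjusted p under 0.05, 265 above 0 and 381 below 0. The calls below therefore hold against the differences between the 2 libraries of each group and not against this spread from passage to passage. The spread was taken from the whole series, mostly from passages later than those of the interaction. Passage 8, whose libraries stand apart, was among them, and its share in the spread was not tested. The unadjusted p of the test with the passage as the unit is given beside the main genes as the passage-level p.

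The 3382 genes were sorted by their treatment effect (NrESC over ESC) at passage 0, called for 32.4% of all genes tested, and over passages 2 and 4, called for 63%. In 1238 genes the effect appeared, up in 547 and down in 691. It was not called at passage 0 and was called at passage 2 and again at passage 4, each time with the sign of the interaction. Of all 15036 genes tested, 7293 had a called effect at passage 2 and 8158 at passage 4. In 1101 genes the effect grew in the direction it already had, up in 604 and down in 497. It faded in 359 genes, where it was called at passage 0, the interaction had the opposite sign, and the later effect was either not called or of the same sign as before. It reversed sign in 155. The remaining 529 fell in none of these classes. The passage 0 libraries enter both the passage 0 effect and the interaction, so both share any error in them. An error that enlarges the passage 0 effect shifts a gene towards faded or reversed. One that shrinks it shifts a gene towards appeared or grew. The class sizes are a description.

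**Figure D1:**
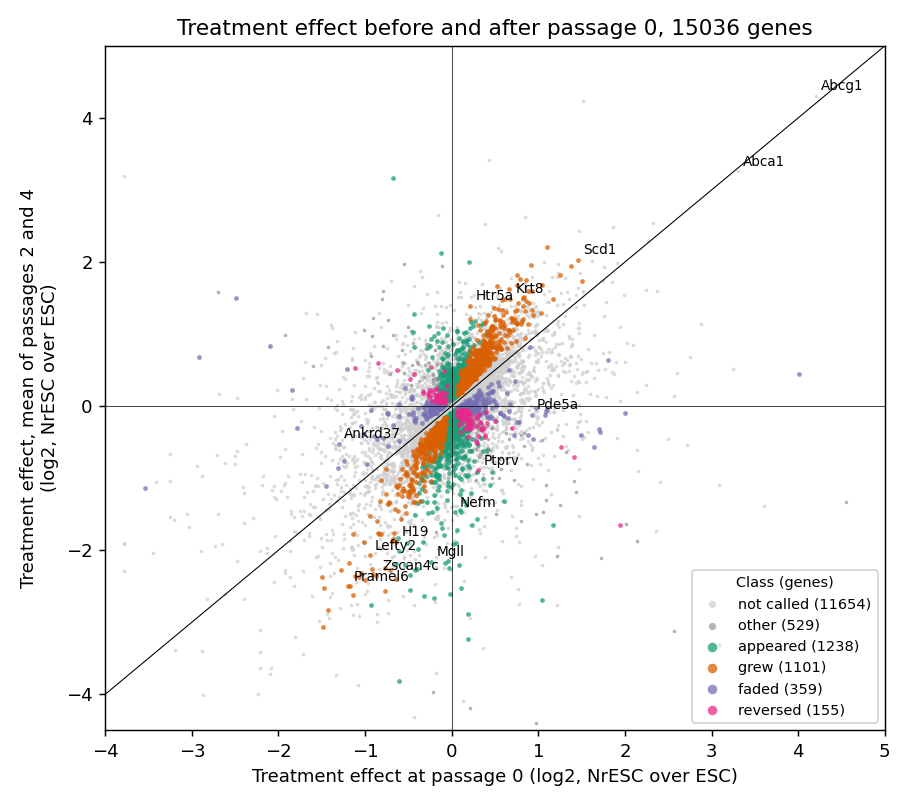
Treatment effect (log2, NrESC over ESC) at passage 0 on the horizontal axis and as the mean of passages 2 and 4 on the vertical axis, 1 point per gene, coloured by class; the diagonal marks an equal effect and 22 genes lie outside the range shown. Abca1 and Abcg1 lie near the diagonal, while Zscan4c, Mgll and Nefm lie below it and Htr5a above it.

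The untreated arm moved more than the treated arm: a change from passage 0 was called for 47.6% of all genes in ESC and for 37.1% in NrESC. Over the 3382 genes the median size of the change from passage 0 was 0.23 log2 in ESC and 0.12 in NrESC, against 0.18 and 0.135 over all genes tested. The change in ESC was the larger in 2297 of them (67.9%), against 58.7% of all genes tested. In genes with an interaction above 0 the median change was -0.24 in ESC and 0.03 in NrESC, and in genes below 0 it was 0.19 in ESC and -0.09 in NrESC. These values are parts of the interaction itself and describe it.

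Genes of the 2-cell-like state had the lowest median interaction of the 28 gene lists, and 5 of the 8 lowest named genes, which were required to have a mean of at least 1 log2 CPM, are members. All 24 tested members of that list had an interaction below 0, and 15 were called lower and 0 higher (18 and 0 at an unadjusted p under 0.05, 14 and 0 by DESeq2). Of all genes tested, 11.5% were called lower and 11% higher. The list's median interaction was -1.46, against -0.00175 over all genes tested. The list's median treatment effect was -0.82 at passage 0 and -2.27 over passages 2 and 4. Summed over the members, the level was 37.2 and 36.4 CPM in ESC at passage 0, then 101 and 108 at passage 2 and 277 and 289 at passage 4. In NrESC the sum was 18 and 20.6 CPM, then 30.5 and 31.1, then 39.4 and 38.4. The sum therefore rose in both arms and at every step, and the ESC libraries of passage 4 lay far above all others. The median change from passage 0 was 2.18 log2 in ESC and 0.82 in NrESC. In all 15 called members the ESC change was the larger, against 62.7% of all genes called lower. The call held for 15 members when a change beyond 1.2-fold was required, and for 0 members with the passage as the unit.

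Zscan4c, which encodes a zinc finger protein tied to telomere lengthening in stem cells, stood at 5.99 and 5.66 CPM at passage 0, then 16.4 and 16.7 at passage 2 and 41.9 and 43.4 at passage 4 in ESC. The NrESC libraries had 2.67 and 3.57 CPM at passage 0, then 4.97 and 4.7 at passage 2 and 5.88 and 5.3 at passage 4. The ESC libraries rose at each passage, and the highest NrESC library lay within the ESC range of passage 0. Its interaction was -1.49 ± 0.145, with an adjusted p of 1.96e-10 and a passage-level p of 0.00961. For its copy Zscan4b the effect appeared after passage 0: it was -0.48 (adjusted p 0.139) and then -2.56, and the interaction was -2.08 ± 0.287 (adjusted p 4.74e-07). Zscan4a and Zscan4f had interactions of -1.48 ± 0.171 and -1.35 ± 0.231. RSEM divides reads among near-identical copies, so the split of counts within this family, and within the Usp17l family on the same list, is uncertain.

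Tmem92, a membrane protein gene on the same list, stood at 1.5 and 1.2 CPM at passage 0, then 4.78 and 4.64 at passage 2 and 14.4 and 14.5 at passage 4 in ESC. Its level in NrESC was 0.81 and 1.09 CPM at passage 0, then 1.47 and 1.18 at passage 2 and 1.87 and 2.01 at passage 4. The treatment effect was not called at passage 0 (adjusted p 0.083) and the arms were far apart at passage 4, and the interaction was -1.86 ± 0.233 (adjusted p 6.73e-08, passage-level p 0.00471). The step from passage 2 to passage 4 was itself called for Tmem92 (-1.09, adjusted p 2.84e-04) and for Zscan4c (-1.18, adjusted p 5.11e-08).

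The start-site sequences of 4 Zscan4 copies are shown because Zscan4a, Zscan4b, Zscan4c and Zscan4f are 4 of the 8 genes named for the lowest interactions; Zscan4d is a further copy that was called lower. Each is the 100 bases before the RefSeq start on the gene's strand (GRCm38.p6, chromosome 7), and the capitals mark a 33-base run shared by all 4 windows, which holds a TATA box (TATAAA) and a CCAAT box. Zscan4b is at chr7:10905051-10905150 (minus strand), Zscan4c at chr7:11005645-11005744 (plus), Zscan4d at chr7:11166149-11166248 (minus) and Zscan4f at chr7:11397815-11397914 (plus).
Zscan4b: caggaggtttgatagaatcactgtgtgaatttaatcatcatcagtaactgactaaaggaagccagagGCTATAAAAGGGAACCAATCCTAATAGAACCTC
Zscan4c: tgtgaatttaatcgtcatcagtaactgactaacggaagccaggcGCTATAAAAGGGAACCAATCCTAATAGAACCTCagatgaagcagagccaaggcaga
Zscan4d: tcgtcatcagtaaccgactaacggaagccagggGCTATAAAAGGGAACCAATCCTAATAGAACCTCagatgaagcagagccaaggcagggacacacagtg
Zscan4f: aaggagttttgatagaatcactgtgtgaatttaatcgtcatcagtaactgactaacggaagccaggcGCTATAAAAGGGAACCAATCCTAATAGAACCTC
The run begins 33 bases before the annotated start in Zscan4b and Zscan4f, 56 before it in Zscan4c and 67 before it in Zscan4d. Aligned by their starts, Zscan4b and Zscan4f matched at 94 of the 100 positions.

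Of the 8 tested members of the PRAME family, genes active in germ cells and early embryos, 2 were called lower and 2 higher. The shares of all genes tested were 11.5% and 11%. Pramel6, which with its neighbour Pramel7 is linked to the ground state of pluripotency, stood at 7.88 and 8.42 CPM at passage 0, then 8.55 and 8.12 at passage 2 and 12.3 and 13.5 at passage 4 in ESC. Under T0901317 it was at 3.68 and 3.46 CPM at passage 0, then 1.56 and 1.87 at passage 2 and 2.14 and 1.87 at passage 4. Here both arms moved, ESC up by 0.36 and NrESC by -0.95, and the interaction was -1.31 ± 0.156 (adjusted p 2.17e-08, passage-level p 0.0248). Pramel7 had an interaction of -1.26 ± 0.213 (adjusted p 1.78e-05). The RefSeq starts of Pramel6 and Pramel7 lie 13946 bases apart on chromosome 2 (GRCm38.p6), on opposite strands. Pramef12 had a small interaction above 0 (0.17 ± 0.038), and Pramel1, chosen after its value was seen, had an interaction of 0.77 ± 0.215.

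Other genes with low interactions came from no single list. Mgll, which encodes monoacylglycerol lipase, stood at 1.58 and 1.71 CPM at passage 0, then 3.77 and 3.8 at passage 2 and 8.72 and 6.86 at passage 4 in ESC. The values in NrESC were 0.979 and 1.66 CPM at passage 0, then 1.27 and 1.35 at passage 2 and 1.11 and 1.14 at passage 4. The change was 1.73 in ESC (adjusted p 1.15e-11) and -0.19 in NrESC (adjusted p 0.511), with an interaction of -1.92 ± 0.277 (adjusted p 1.24e-06, passage-level p 0.00334). Serpine2, a secreted protease inhibitor, changed by 1.29 in ESC and -0.031 in NrESC, with an interaction of -1.32 ± 0.192 (adjusted p 1.31e-06). Nefm, a neurofilament subunit, fell in both arms. Its level was 28.5 and 26.2 CPM at passage 0, then 13.3 and 14 at passage 2 and 10.6 and 8.84 at passage 4 in ESC, and 27.3 and 28.7 CPM at passage 0, then 5.5 and 5.49 at passage 2 and 3.14 and 3.09 at passage 4 in NrESC. The arms overlapped at passage 0 and were apart afterwards, and the interaction was -1.51 ± 0.1 (adjusted p 6.63e-15, passage-level p 0.00217).

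Among imprinted genes 3 were called higher and 7 lower of 33 tested (all genes: 11% and 11.5%), with a median of 0.01. H19, a maternally expressed noncoding RNA, stood at 4.95 and 4.1 CPM at passage 0, then 6.67 and 7.51 at passage 2 and 11.4 and 10.3 at passage 4 in ESC and at 2.73 and 3.09 CPM at passage 0, then 2.19 and 2.07 at passage 2 and 2.46 and 2.76 at passage 4 in NrESC, so it rose in ESC (0.94) and fell in NrESC (-0.31), and the interaction was -1.24 ± 0.155 (adjusted p 5.75e-08, passage-level p 0.00589). Plagl1, an imprinted zinc finger gene, had an interaction of -0.30 ± 0.0346, and Impact, an imprinted regulator of translation, one of -0.38 ± 0.0413.

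**Figure D2:**
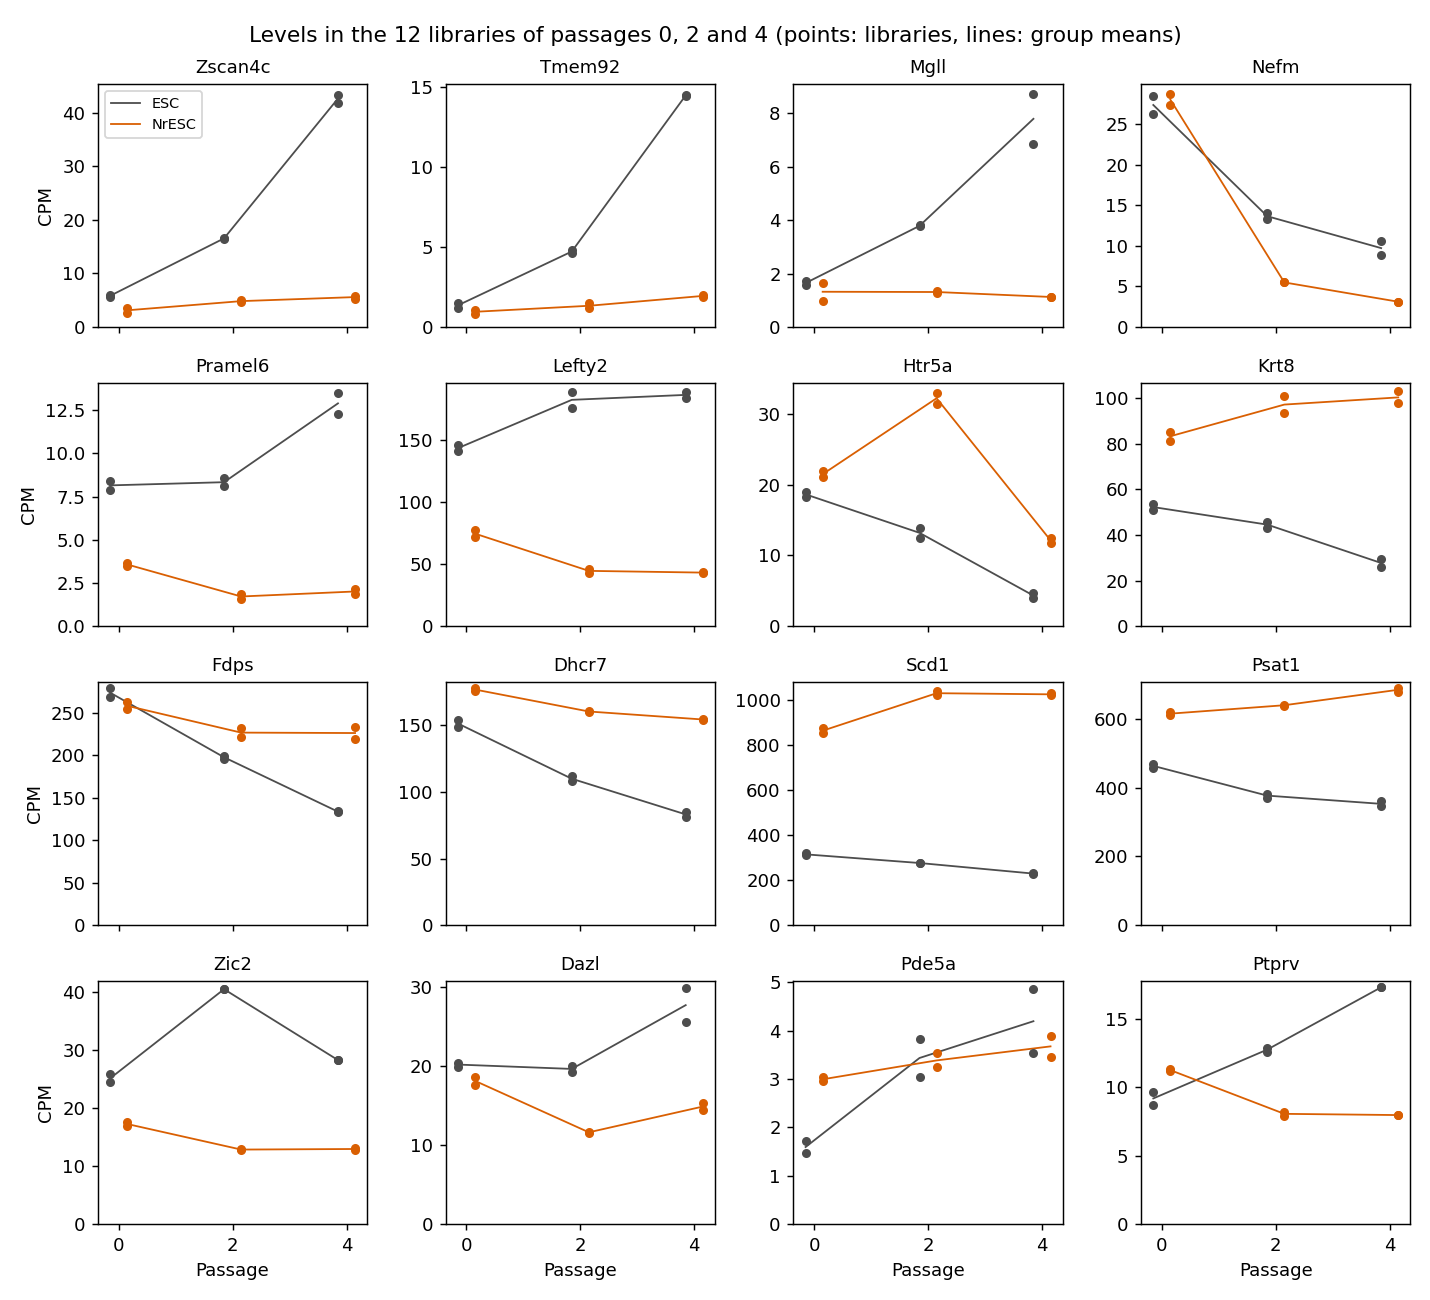
CPM of 16 genes in each of the 12 libraries by passage, with ESC in grey and NrESC in orange; points are libraries, lines join group means, and each vertical axis starts at 0. Zscan4c, Tmem92 and Mgll rise in ESC and stay low in NrESC, Nefm falls further in NrESC, and Fdps and Dhcr7 fall further in ESC.

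The highest interactions had no common list either. Htr5a, a serotonin receptor gene, stood at 18.3 and 19 CPM at passage 0, then 12.5 and 13.9 at passage 2 and 4.66 and 3.98 at passage 4 in ESC. Treated cells had 21.1 and 21.9 CPM at passage 0, then 33 and 31.5 at passage 2 and 12.5 and 11.8 at passage 4. The level was lower at each later passage in ESC, and in NrESC it was highest at passage 2. The interaction was 1.18 ± 0.106 (adjusted p 2.62e-11, passage-level p 3.30e-04). Tbx18, a T-box transcription factor gene, changed by -0.68 in ESC and 0.32 in NrESC. Its NrESC libraries lay above every ESC library from passage 2 on, and the interaction was 0.99 ± 0.106 (adjusted p 1.79e-09).

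Kcnd3, a potassium channel subunit, rose in both arms and further in NrESC, by 1.51 against 0.46 in ESC (1.04 ± 0.22 for the interaction, adjusted p 4.22e-04). For Coro1a, which encodes an actin-binding protein of blood cells, the change was 0.79 in NrESC and -0.39 in ESC, with an interaction of 1.17 ± 0.234 (adjusted p 2.06e-04). Epx, a peroxidase gene, had an interaction of 1.15 ± 0.232, the homeobox gene Hoxc8 1.07 ± 0.238 and the zinc finger gene Zfp712 0.96 ± 0.204, all with adjusted p values between 2.52e-04 and 8.10e-04. These genes were weakly expressed, at 1.12 to 4.26 CPM for Epx.

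Of 21 LXR targets tested, 6 were called higher, against 11% of all genes, and 0 lower (7 and 1 at an unadjusted p under 0.05, 6 and 0 by DESeq2), with a median interaction of 0.11 and a median treatment effect of 0.395 at passage 0 and 0.43 afterwards. Among the 6 were the lipid genes Acsl3, Srebf1, Lpcat3, Scd2 and Scd1. Abcg1, a cholesterol exporter, had an effect of 4.21 at passage 0, and its interaction was 0.10 ± 0.103 (adjusted p 0.518). Scd1, the desaturase that makes monounsaturated fatty acids, stood at 310 and 319 CPM at passage 0, then 277 and 275 at passage 2 and 225 and 233 at passage 4 in ESC. NrESC had 853 and 874 CPM at passage 0, then 1040 and 1020 at passage 2 and 1030 and 1020 at passage 4. It fell in ESC (-0.32) and rose in NrESC (0.25), and the interaction was 0.57 ± 0.0296 (adjusted p 3.84e-18, passage-level p 0.0725). Scd2 had an interaction of 0.32 ± 0.0235, and Lpcat3, which remodels phospholipids, one of 0.26 ± 0.0366.

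Fatty acid synthesis genes share Scd1, Scd2, Srebf1, Acsl3 and Pnpla3 with the LXR list. Of 20 tested, 10 were called higher and 1 lower (all genes: 11% and 11.5%), with a median of 0.11. The desaturase Fads1 stood at 127 and 134 CPM at passage 0, then 99.1 and 102 at passage 2 and 78.7 and 79 at passage 4 in ESC. In NrESC it stood at 168 and 174 CPM at passage 0, then 170 and 168 at passage 2 and 152 and 156 at passage 4. The change was -0.55 in ESC and -0.083 in NrESC, and the interaction was 0.47 ± 0.0453 (adjusted p 1.62e-10, passage-level p 0.115). The member called lower was Fasn, fatty acid synthase, at -0.08 ± 0.0281 (adjusted p 0.0335), chosen after its value was seen.

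Of the cholesterol synthesis genes 19 of 26 were called higher and 0 lower (20 and 0 at an unadjusted p under 0.05, 18 and 0 by DESeq2), with a median interaction of 0.235. The shares of all genes called were 11% higher and 11.5% lower. The list's median treatment effect was 0.09 at passage 0 and 0.36 over passages 2 and 4. Summed over the members, ESC fell from 3270 and 3280 CPM at passage 0 to 2860 and 2850 at passage 2 and 2230 and 2240 at passage 4. NrESC went from 3400 and 3400 CPM to 3200 and 3220, and then 3100 and 3120. Both arms thus lost expression, with a median change of -0.34 in ESC and -0.14 in NrESC. In all 19 called members the ESC change was the larger, against 73.4% of all genes called higher. The step from passage 2 to passage 4 was called higher for 17 of the 26 and lower for 0 (all genes: 6% and 5.66%). With a change beyond 1.2-fold required, 4 of the 26 stayed called.

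Fdps, which makes farnesyl diphosphate, stood at 268 and 279 CPM at passage 0, then 199 and 196 at passage 2 and 133 and 134 at passage 4 in ESC. The NrESC libraries had 262 and 254 CPM at passage 0, then 221 and 232 at passage 2 and 219 and 233 at passage 4. At passage 0 the NrESC libraries were slightly below the ESC libraries, and at passages 2 and 4 they were above them. Its interaction was 0.57 ± 0.0375 (adjusted p 6.63e-15, passage-level p 0.0454). Dhcr7, an enzyme of the last steps of cholesterol synthesis, stood at 149 and 154 CPM at passage 0, then 108 and 112 at passage 2 and 84.9 and 81.5 at passage 4 in ESC and at 176 and 178 CPM at passage 0, then 160 and 161 at passage 2 and 155 and 154 at passage 4 in NrESC, with an interaction of 0.50 ± 0.0357 (adjusted p 5.11e-14, passage-level p 0.12). For Fdft1, squalene synthase, the effect was -0.027 at passage 0 (adjusted p 0.56) and 0.40 afterwards, and the interaction was 0.42 ± 0.0389 (adjusted p 4.06e-11). Among the members not called were Ebp, Hsd17b7, Ggps1, Idi1 and Insig2.

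Start-site windows were searched for 6 patterns on both strands, in the 300 bases from 250 before to 50 after each RefSeq start (GRCm38.p6, 27025 genes with a window). CCAAT occurred in 17 of 18 cholesterol synthesis genes with a window and in 41.1% of all genes. It occurred in 13 of 19 stress genes of the ATF4 list, 8 of 11 of the 2-cell-like genes, 2 of 3 of the PRAME family, 10 of 14 LXR targets and 13 of 17 fatty acid genes. The sterol element TCACNCCAC occurred in 0 of the 18 and in 1.44% of all, the E-box CACGTG in 4 of the 18 and 8.09% of all. The LXR element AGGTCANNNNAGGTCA occurred in 0 of 14 LXR targets and in 0.0148% of all genes, and the cyclic AMP element TGACGTCA in 1 of those 14 and 2.03% of all. A match is a string of letters and not a tested site, and no match says only that the letters are not in the window. None of the 6 patterns contains another. Stretches of 100 bases are shown for Insig1 (chr5:28071162-28071261, plus strand, 250 to 151 bases before the start) and Lss (chr10:76531495-76531594, plus, 110 to 11 before), regulators or enzymes of the pathway with interactions of 0.43 ± 0.0403 and 0.34 ± 0.038, with the CCAAT box, here on the opposite strand as ATTGG, in capitals.
Insig1: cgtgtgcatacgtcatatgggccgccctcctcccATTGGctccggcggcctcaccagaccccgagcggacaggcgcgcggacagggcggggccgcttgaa
Lss: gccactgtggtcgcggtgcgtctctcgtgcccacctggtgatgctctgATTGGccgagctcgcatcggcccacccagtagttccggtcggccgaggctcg
Both genes were picked after their values were seen, among the cholesterol members with the smallest p values.

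Genes of the ATF4 and CHOP stress response, which includes amino acid synthesis and uptake, mostly had interactions above 0: 17 of 22 were called higher and 0 lower (17 and 1 at an unadjusted p under 0.05, 16 and 0 by DESeq2), with a median interaction of 0.25. Their median treatment effect was already 0.47 at passage 0 and reached 0.82 over passages 2 and 4. Of all genes tested, 11% were called higher and 11.5% lower. All 17 called members of the list were genes whose effect grew, against 604 of the 1647 genes called higher. At passage 0, 21 of the 22 were already called higher, against 17.6% of all genes. For such genes a called interaction above 0 nearly sets this class. The median change was -0.22 in ESC and 0.07 in NrESC. In 12 of the 17 the ESC change was the larger, near the 73.4% of all genes called higher. With a change beyond 1.2-fold required, 5 of the 22 stayed called.

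Psat1, an enzyme of serine synthesis, stood at 457 and 470 CPM at passage 0, then 383 and 371 at passage 2 and 360 and 346 at passage 4 in ESC. Its level in NrESC was 619 and 612 CPM at passage 0, then 639 and 641 at passage 2 and 679 and 691 at passage 4. The arms did not overlap at any passage and drew further apart, with an interaction of 0.45 ± 0.0282 (adjusted p 1.38e-15, passage-level p 0.0139). Phgdh, the enzyme before it in the pathway, had an interaction of 0.47 ± 0.0399 (adjusted p 5.59e-12), and Slc7a5, a transporter of large neutral amino acids, one of 0.33 ± 0.0265 (adjusted p 1.30e-12). Slc7a11, the cystine transporter, was chosen after its value was seen and stood at 1.37 and 1.67 CPM at passage 0, then 0.782 and 0.986 at passage 2 and 0.913 and 1 at passage 4 in ESC. Under T0901317 it was at 2.19 and 3.15 CPM at passage 0, then 2.74 and 2.56 at passage 2 and 3.26 and 3.87 at passage 4, with an interaction of 0.88 ± 0.265 (adjusted p 0.0125).

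The composite element TGATGNAA, to which ATF4 and C/EBP proteins bind, occurred in 7 of the 19 genes of this list with a window and in 4.51% of all genes. It occurred in 2 of 18 cholesterol genes. Stretches are shown for 4 of the 7 on the gene's strand. The element is in capitals, and reads TTGCATCA where it lies on the opposite strand. Asns, asparagine synthetase, is at chr6:7693210-7693309 (minus strand, 100 to 1 bases before the start), Chac1, which degrades glutathione, at chr2:119351003-119351102 (plus, 239 to 140), Slc7a11 at chr3:50443626-50443725 (minus, 112 to 13) and Atf3, a stress transcription factor, at chr1:191183390-191183489 (minus, 156 to 57).
Asns: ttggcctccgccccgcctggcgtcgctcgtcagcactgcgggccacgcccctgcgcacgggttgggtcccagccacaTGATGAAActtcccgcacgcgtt
Chac1: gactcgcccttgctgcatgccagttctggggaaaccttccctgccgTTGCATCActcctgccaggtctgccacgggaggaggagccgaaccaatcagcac
Slc7a11: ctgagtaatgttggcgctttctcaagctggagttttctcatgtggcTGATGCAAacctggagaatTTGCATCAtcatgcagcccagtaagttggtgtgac
Atf3: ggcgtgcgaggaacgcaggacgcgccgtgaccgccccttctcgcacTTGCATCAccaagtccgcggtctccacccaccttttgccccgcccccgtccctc
Slc7a11 holds the element 2 times. The interactions of these genes were 0.24 ± 0.0255 for Asns, 0.60 ± 0.0982 for Chac1, 0.88 ± 0.265 for Slc7a11 and 0.40 ± 0.119 for Atf3, and all 4 were called. Vldlr also holds the element, and its interaction of 0.14 ± 0.115 was not called (adjusted p 0.409).

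**Figure D3:**
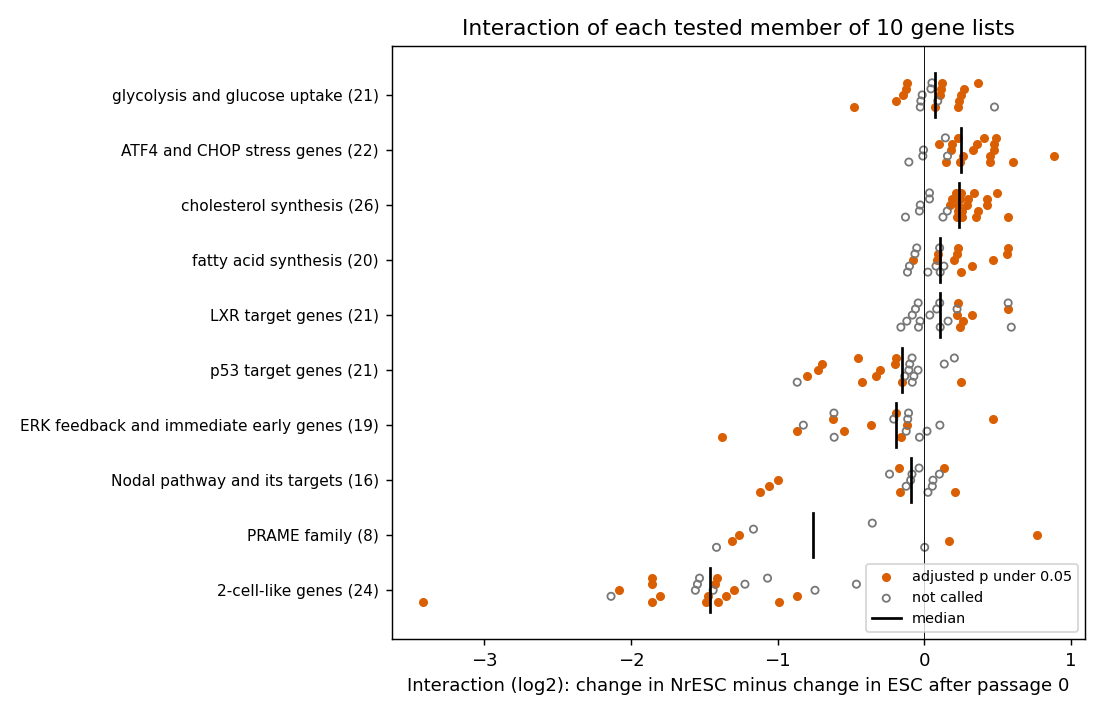
Interaction (log2) of each tested member of 10 gene lists on the horizontal axis, with filled points for genes at an adjusted p under 0.05, open points for the others and a bar at the list's median. The 24 genes of the 2-cell-like list all lie below 0, with a median of -1.46, and 23 of the 26 cholesterol synthesis genes lie above 0.

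Among core and naive pluripotency genes 6 were called higher and 10 lower of 26 (all genes: 11% and 11.5%), with a median of -0.08. Dppa2, which keeps some developmental genes poised, stood at 106 and 101 CPM at passage 0, then 130 and 127 at passage 2 and 140 and 126 at passage 4 in ESC. The values in NrESC were 75.9 and 73.8 CPM at passage 0, then 63.9 and 66.8 at passage 2 and 60.5 and 60 at passage 4. It rose in ESC and fell in NrESC, and the interaction was -0.59 ± 0.0501 (adjusted p 6.72e-12, passage-level p 0.212). Sox2 had an interaction of -0.31 ± 0.0327 (adjusted p 1.49e-09) and Dppa5a one of 0.33 ± 0.047 (adjusted p 1.04e-06). Pou5f1 moved by 0.11 ± 0.0306 and Nanog by -0.11 ± 0.0253, both called and small, and both chosen after their values were seen.

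Of the formative and primed genes, 3 were called higher and 5 lower of 15 (all genes: 11% and 11.5%), with a median of -0.16. Zic2, a zinc finger gene of that state, stood at 25.8 and 24.4 CPM at passage 0, then 40.4 and 40.5 at passage 2 and 28.2 and 28.3 at passage 4 in ESC. Treated cells had 16.9 and 17.6 CPM at passage 0, then 12.9 and 12.8 at passage 2 and 12.8 and 13.1 at passage 4. In ESC the level rose at passage 2 and returned at passage 4, and the interaction was -1.12 at passage 2 and -0.58 at passage 4, -0.85 ± 0.0758 in the mean (adjusted p 2.47e-11). Etv5 had an interaction of -0.19 ± 0.0293. Of the Nodal pathway, 2 were called higher and 5 lower of 16 (median -0.09), beside the same shares of all genes. Lefty2, an inhibitor of Nodal, stood at 141 and 146 CPM at passage 0, then 189 and 176 at passage 2 and 184 and 189 at passage 4 in ESC. NrESC had 77.6 and 71.6 CPM at passage 0, then 45.9 and 43.2 at passage 2 and 43.8 and 42.5 at passage 4. The arms moved in opposite directions, ESC by 0.36 and NrESC by -0.76, and the interaction was -1.12 ± 0.0444 (adjusted p 2.85e-22, passage-level p 0.122). Lefty1 had an interaction of -0.996 ± 0.185, while the ligand Nodal itself had one of -0.12 ± 0.0468 (adjusted p 0.0508), chosen after its value was seen.

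Among ERK feedback and immediate early genes 1 was called higher and 8 lower of 19 (all genes: 11% and 11.5%), with a median of -0.19. From passage 2 to passage 4 the treatment effect rose for 7 of the 19 and fell for 1 (all genes: 6% and 5.66%), with a median step of 0.246. Myc stood at 16 and 16.1 CPM at passage 0, then 37.8 and 37.4 at passage 2 and 11.4 and 10.9 at passage 4 in ESC. In NrESC it stood at 10.6 and 11.2 CPM at passage 0, then 11.4 and 12 at passage 2 and 6.91 and 7.14 at passage 4. The ESC libraries of passage 2 stood above the rest, so the interaction was -1.13 at passage 2 and -0.11 at passage 4. Egr1, chosen after its value was seen, showed the same passage: it stood at 0.467 and 0.218 CPM at passage 0, then 62.2 and 65.9 at passage 2 and 0.819 and 1.26 at passage 4 in ESC, and at 0.337 and 0.197 CPM at passage 0, then 10.1 and 11.1 at passage 2 and 0.318 and 0.557 at passage 4 in NrESC. In all other libraries of the 12 it stayed under 2 CPM. Whether the state of the cultures at the passage 2 harvest plays a part in the results of that passage was not tested. Spry4, a feedback inhibitor of the pathway, had an interaction of -0.55 ± 0.0849 (adjusted p 4.72e-06).

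Of 18 beta-catenin targets, 2 were called higher and 5 lower (all genes: 11% and 11.5%), with a median of -0.20. Cdx1, a homeobox gene induced by Wnt signalling, stood at 200 and 185 CPM at passage 0, then 148 and 143 at passage 2 and 79.8 and 77.2 at passage 4 in ESC and at 174 and 163 CPM at passage 0, then 162 and 179 at passage 2 and 96.3 and 92.4 at passage 4 in NrESC, with an interaction of 0.44 ± 0.0552 (adjusted p 8.42e-08). Ccnd1, cyclin D1, had an interaction of -0.27 ± 0.041, and Notum, a secreted Wnt inhibitor, one of -0.46 ± 0.091. Retinoic acid receptors and targets gave 1 higher and 5 lower of 18 (median -0.16, or -0.14 without 1 gene that has a group at 0 counts), with Rarg at -0.39 ± 0.0522 (adjusted p 2.58e-07). Of 21 p53 targets 1 was called higher and 10 lower (median -0.15). Plk2, a kinase gene of this list, stood at 21.1 and 21.8 CPM at passage 0, then 27.7 and 29.9 at passage 2 and 36.5 and 36.5 at passage 4 in ESC and at 22.1 and 22.3 CPM at passage 0, then 20.6 and 21.6 at passage 2 and 21.4 and 19.6 at passage 4 in NrESC, and the interaction was -0.70 ± 0.0741 (adjusted p 1.45e-09, passage-level p 0.023). The change was called in ESC (0.60) and not in NrESC (-0.10, adjusted p 0.131). Trp53inp1, which promotes p53 activity, had an interaction of -0.45 ± 0.0478, and the cyclin G gene Ccng1 one of -0.33 ± 0.0299. The 1 member called higher was Cdkn1a, the cell cycle inhibitor p21, at 0.25 ± 0.0319.

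**Figure D4:**
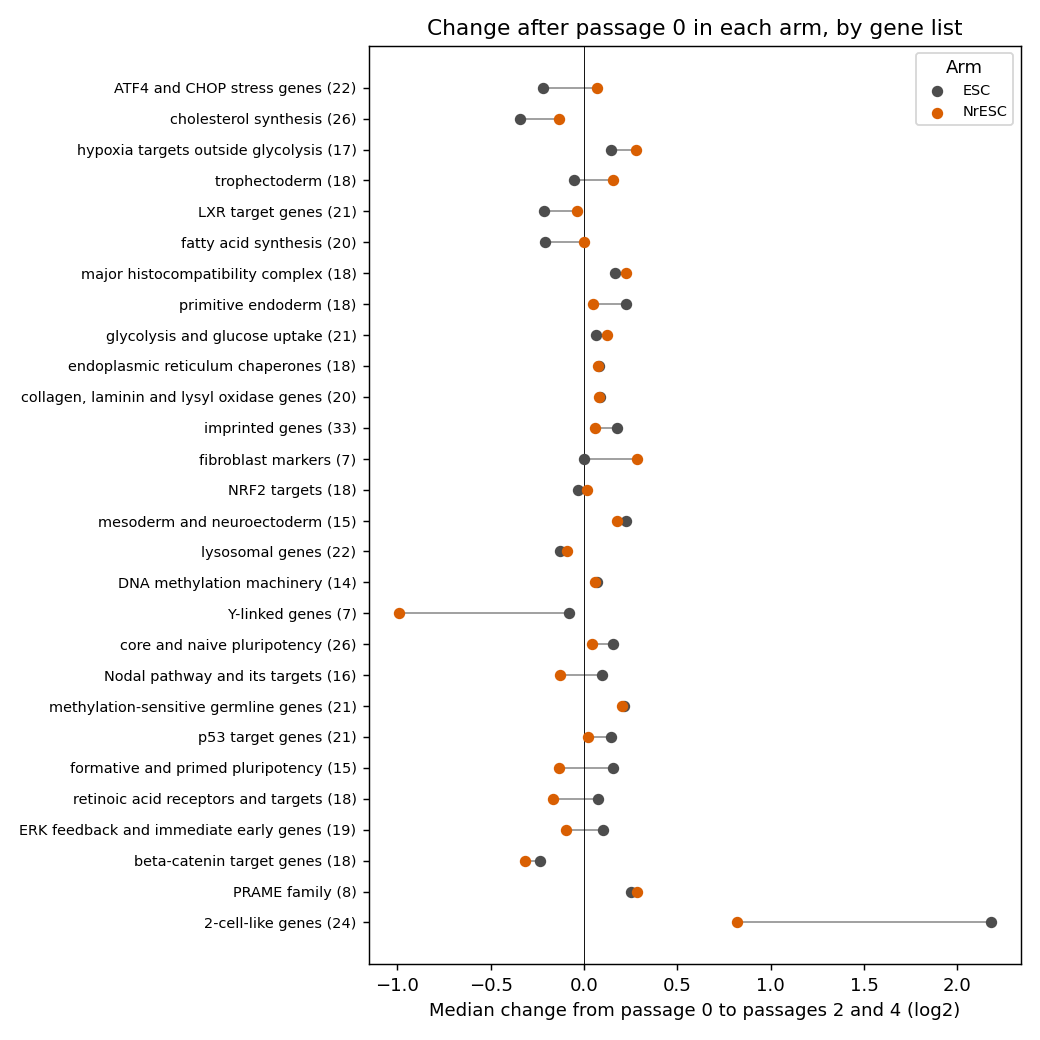
Median change (log2) from passage 0 to passages 2 and 4 in ESC (grey) and in NrESC (orange) for each of the 28 gene lists, ordered by the list's median interaction, with the number of tested members in brackets. The 2-cell-like list changed by 2.18 in ESC and 0.82 in NrESC, and the cholesterol synthesis list by -0.34 and -0.14.

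Markers of other lineages moved in both directions. Of 18 trophectoderm genes 5 were called higher and 1 lower (all genes: 11% and 11.5%), with a median of 0.12. Of the 5, 3 were keratins. Krt8 stood at 51.1 and 53.4 CPM at passage 0, then 45.9 and 43.2 at passage 2 and 29.4 and 26 at passage 4 in ESC. The NrESC libraries had 85.4 and 81.3 CPM at passage 0, then 93.5 and 101 at passage 2 and 97.8 and 103 at passage 4. The interaction was 0.82 ± 0.0557 (adjusted p 1.29e-14, passage-level p 0.029), with 0.61 ± 0.116 for its partner Krt18 and 0.64 ± 0.122 for Krt19. Over passages 6 to 14 the treatment effect ranged from 0.457 to 1.22 for Krt8, from -0.555 to 0.586 for Krt18 and from -0.947 to 1.92 for Krt19. Of the trophectoderm factors on the list, Cdx2, Elf5, Hand1 and Gata3 had at most 131, 6, 14 and 38 counts in any of the 12 libraries, while Eomes reached 1559, Tfap2c 1742, Tfap2a 861, Gata2 372 and Tead4 4105. The summed trophectoderm level went from 873 to 891 CPM at passage 0 in ESC to 990 to 1030 at passage 4, and in NrESC from 922 to 924 up to 1090 to 1110.

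Primitive endoderm genes gave 1 higher and 4 lower of 18 (all genes: 11% and 11.5%), with a median of 0.08. The collagen gene Col4a1 stood at 26.4 and 26.2 CPM at passage 0, then 38.6 and 37.9 at passage 2 and 59 and 56.3 at passage 4 in ESC. In NrESC it was at 23.8 and 23.8 CPM at passage 0, then 25.5 and 27.5 at passage 2 and 29.3 and 30.9 at passage 4. Its interaction was -0.59 ± 0.0728 (adjusted p 5.07e-08). Col4a2 had an interaction of -0.47 ± 0.0872, and Lrp2, an endocytic receptor gene, one of -0.34 ± 0.0524. Of the factors of that lineage, Gata6, Sox17, Sox7 and Foxa2 had at most 49, 36, 14 and 5 counts in any of the 12 libraries, while Gata4 reached 325 and Hnf4a 608, and the endocytic adaptor gene Dab2 reached 270. Mesoderm and neuroectoderm genes gave 0 higher and 3 lower of 15 (median -0.01, or 0.01 without 1 gene that has a group at 0 counts; 1 and 3 at an unadjusted p under 0.05, 0 and 2 by DESeq2): Tubb3 at -0.28 ± 0.0519 (adjusted p 6.86e-05), T at -0.59 ± 0.2 and Nes at -0.20 ± 0.0641. The call for T was lost when either library of passage 0 of either arm, library 2 of passages 2 or 4 of ESC, or library 2 of passage 4 of NrESC was left out, and that for Nes without library 2 of passage 0 of either arm or library 1 of passages 2 or 4 of ESC (adjusted p 0.0511 to 0.165 over both genes). Fibroblast markers gave 1 higher and 2 lower of 7 (median 0.00268), with Fbn1 at -0.75 ± 0.138, Vim at -0.41 ± 0.034 and Pdgfrb at 0.45 ± 0.0817. The summed primitive endoderm level was 1080 to 1230 CPM in ESC and 1060 to 1140 in NrESC, and the summed mesoderm and neuroectoderm level 181 to 258 and 158 to 191. The part of other cell types in these results was not tested.

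Methylation-sensitive germline genes gave 1 higher and 4 lower of 21 (all genes: 11% and 11.5%), with a median of -0.09. Dazl, an RNA-binding protein gene of germ cells, stood at 19.9 and 20.4 CPM at passage 0, then 20 and 19.2 at passage 2 and 25.5 and 29.8 at passage 4 in ESC and at 17.6 and 18.6 CPM at passage 0, then 11.5 and 11.7 at passage 2 and 15.3 and 14.4 at passage 4 in NrESC, with an interaction of -0.69 ± 0.0818 (adjusted p 2.27e-08, passage-level p 0.00239). Tex15 had an interaction of -0.63 ± 0.0674 and Fkbp6 one of -0.50 ± 0.0698. The DNA methylation machinery gave 4 higher and 5 lower of 14 (median -0.03). Dnmt3l, a cofactor of de novo methylation, fell at passage 4 in ESC, where it stood at 121 and 125 CPM at passage 0, then 142 and 144 at passage 2 and 68.4 and 67.4 at passage 4. Its level in NrESC was 100 and 97.3 CPM at passage 0, then 105 and 107 at passage 2 and 83.8 and 90.9 at passage 4. Its interaction was -0.12 at passage 2 and 0.68 at passage 4, so the sign differed between the passages. Dnmt1 had an interaction of -0.16 ± 0.0276 and Tet1 one of -0.13 ± 0.0297.

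Several lists held genes whose effect at passage 0 faded. Of 21 genes of glycolysis and glucose uptake, 9 were called higher and 5 lower (all genes: 11% and 11.5%), with a median of 0.07. Among the 21, 8 faded, against 359 of 15036 genes tested. At passage 0, 16 of the 21 were called lower in NrESC, against 14.8% of all genes tested. Over passages 2 and 4, 14 were called lower, against 30.9% of all genes. In the mean of passages 6, 10, 12 and 14, 17 were called higher and 2 lower (all genes: 34.5% and 35.4%). The list's median effect was 0.16, 0.424, 0.0148 and -0.0617 at these passages, and -0.168 at passage 8. Tpi1, triose phosphate isomerase, stood at 689 and 686 CPM at passage 0, then 705 and 683 at passage 2 and 762 and 765 at passage 4 in ESC. Under T0901317 it was at 513 and 502 CPM at passage 0, then 586 and 595 at passage 2 and 671 and 691 at passage 4. The gap was -0.44 at passage 0 and -0.20 afterwards, and the interaction was 0.24 ± 0.0302 (adjusted p 7.80e-08, passage-level p 0.546). Pfkp, a phosphofructokinase gene, had an interaction of 0.23 ± 0.0298, and for the hexokinase gene Hk1, whose effect grew, it was 0.27 ± 0.0311.

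Of 17 hypoxia targets outside glycolysis 7 were called higher and 2 lower (all genes: 11% and 11.5%), with a median of 0.14. Of the 17, 13 were called lower in NrESC at passage 0, against the same 14.8%. In the later mean 10 were called lower and 5 higher. The list's median effect was -0.104, 0.655, -0.24 and -0.578 at passages 6, 10, 12 and 14, and -0.472 at passage 8. Bnip3, a mitophagy receptor gene, stood at 57.6 and 57.5 CPM at passage 0, then 72.2 and 71.6 at passage 2 and 75.2 and 75.6 at passage 4 in ESC. The values in NrESC were 20.8 and 21.3 CPM at passage 0, then 36 and 33.9 at passage 2 and 31.4 and 34.6 at passage 4. Both arms rose, NrESC further, and the interaction was 0.34 ± 0.0565 (adjusted p 1.50e-05, passage-level p 0.693). Egln1, an oxygen-sensing hydroxylase gene, had an interaction of 0.35 ± 0.0505, and the histone demethylase gene Kdm3a one of -0.21 ± 0.031. Endoplasmic reticulum chaperones gave 6 higher and 1 lower of 18 (median 0.04), with Hspa5, the chaperone BiP, going from an effect of -0.29 to -0.16 (0.13 ± 0.0258 for the interaction, adjusted p 2.70e-04), and Manf at 0.17 ± 0.0429.

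The genes named for the largest fading were weakly expressed. Pde5a, a phosphodiesterase gene, stood at 1.48 and 1.71 CPM at passage 0, then 3.04 and 3.83 at passage 2 and 3.53 and 4.86 at passage 4 in ESC and at 3.04 and 2.95 CPM at passage 0, then 3.24 and 3.53 at passage 2 and 3.89 and 3.46 at passage 4 in NrESC. The arms were apart at passage 0 and overlapped at passages 2 and 4, ESC rose (1.27), and the interaction was -1.04 ± 0.217 (adjusted p 3.73e-04, passage-level p 0.0096). Sema6a, an axon guidance gene, had an effect of 0.78 at passage 0 and -0.21 afterwards. For Cntfr, a cytokine receptor subunit gene, these were 0.66 and -0.071, and for Mapk12, a p38 kinase gene, 0.61 and -0.14. In the other direction, Ankrd37 went from -1.30 to -0.52, Cdc42ep2 from -1.04 to -0.28, Nags from -0.74 to -0.09 and Pcsk1n from -0.54 to 0.25. At passages 6, 10, 12 and 14 the effect was 0.651, 1.04, 0.186 and 0.434 for Mapk12 and 0.225, 0.743, 0.391 and 0.302 for Pde5a. Both thus had the sign of passage 0 there. It was -0.0549, -0.402, 0.167 and -0.527 for Cntfr, and 0.655, 1.56, 0.685 and -0.209 for Nags. For Ankrd37 it was -0.104, 0.35, -0.406 and -0.622, for Cdc42ep2 0.401, 1.68, 0.0508 and -0.912, and for Pcsk1n 0.033, -0.246, -0.36 and -0.291. The interaction call for Nags was lost when either library of passage 0 of either arm, or library 2 of passages 2 or 4 of NrESC, was left out. That for Mapk12 was lost without either library of passage 0 of ESC, library 1 of passage 2 of ESC, or library 1 of passages 0 or 2 of NrESC (adjusted p 0.0545 to 0.0894 over both genes). Likewise, without library 1 of passage 0 of ESC the adjusted p was 0.116 for Cdc42ep2 and 0.0712 for Pcsk1n.

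In 155 genes the effect changed sign. Ptprv, a receptor phosphatase gene, stood at 8.68 and 9.69 CPM at passage 0, then 12.6 and 12.9 at passage 2 and 17.3 and 17.3 at passage 4 in ESC. Treated cells had 11.3 and 11.2 CPM at passage 0, then 8.21 and 7.91 at passage 2 and 7.94 and 8 at passage 4. It was higher in both NrESC libraries than in ESC at passage 0 and lower at passages 2 and 4, with an interaction of -1.19 ± 0.0938 (adjusted p 7.49e-13, passage-level p 5.91e-04). Ly6a, which encodes the surface protein Sca-1, did the opposite: it stood at 27.9 and 28 CPM at passage 0, then 14.7 and 15.5 at passage 2 and 20.7 and 22.7 at passage 4 in ESC and at 19.9 and 21.2 CPM at passage 0, then 21.5 and 18.8 at passage 2 and 29.9 and 30.2 at passage 4 in NrESC, with an interaction of 0.89 ± 0.079 (adjusted p 2.30e-11, passage-level p 0.00152). Its effect over passages 6, 10, 12 and 14 was -0.50 (adjusted p 8.01e-18), below 0 again. Gpx3, a secreted glutathione peroxidase gene, reversed from 0.38 to -0.42 and stayed at -0.54 later. The homeobox gene Hoxb9 went from 0.29 to -0.51, Col22a1 from 0.70 to -0.30, Tlx2 from -0.23 to 0.54 and Flrt1 from -0.48 to 0.37.

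The remaining lists are given by their counts, beside 11% of all genes tested called higher and 11.5% called lower. Collagen, laminin and lysyl oxidase genes gave 4 higher and 6 lower of 20 (median 0.02), with Col18a1 at -0.37 ± 0.0413 and Lama5 at 0.19 ± 0.0316. Of 18 tested genes of the major histocompatibility complex 4 were called higher and 1 lower (median 0.10, or 0.23 without 1 gene that has a group at 0 counts). H2-K1, a class I gene, stood at 32.2 and 28.9 CPM at passage 0, then 28.6 and 27 at passage 2 and 27.4 and 25.5 at passage 4 in ESC and at 48.4 and 48.4 CPM at passage 0, then 52.4 and 52.4 at passage 2 and 59.7 and 60.8 at passage 4 in NrESC, with an interaction of 0.40 ± 0.0627 (adjusted p 6.20e-06), Tapbp was at 0.37 ± 0.051, and the class II gene H2-Eb1 at -1.27 ± 0.324 with at most 2.73 CPM. NRF2 targets gave 4 higher and 1 lower of 18 (median -0.00422), with Nqo1 at 0.25 ± 0.0437, Gclm at 0.29 ± 0.0589 and Gsta4 at -0.20 ± 0.0324. Lysosomal genes gave 3 higher and 3 lower of 22 (median -0.02), with Ctsl at 0.24 ± 0.0413, Ctsb at 0.20 ± 0.0317 and Ctsa at -0.18 ± 0.0434. Of 7 Y-linked genes edgeR called 0 in either direction (median -0.08), with 0 higher and 1 lower at an unadjusted p under 0.05, and DESeq2 called 0 of the 4 it tested.

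The libraries of passages 6, 10, 12 and 14 do not enter the interaction and show what followed. Passage 8 was kept out of their mean because its libraries stand apart: there 2102 genes had a called treatment effect of at least 2-fold, against 661 to 1163 at passages 6, 10, 12 and 14. Of the 3382 genes, 2699 (79.8%) had a later effect called in the direction of their interaction and 243 (7.19%) one called against it. Over all 15036 genes tested these shares were 53.7% and 16.2%, and the later effect was called for 69.9% of them, higher for 34.5% and lower for 35.4%. Where the effect had appeared, 1087 of 1238 genes (87.8%) kept the sign later, and where it had grown, 1081 of 1101 (98.2%). Where it had faded, 98 of 359 were called in the direction of the interaction later, 136 in the direction of the passage 0 effect and 125 were not called. Where it had reversed, 98 of 155 were called later with the new sign and 14 with the old one.

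Where the effect had appeared, its medians at passages 6, 10, 12 and 14 lay closer to 0 than at passage 4. In genes where it appeared upwards the median was 0.03 at the start (passage 0), reached 0.35 at passage 4, and was 0.23 by passage 6 and 0.155 by passage 14. In genes where it appeared downwards the same medians were -0.03, -0.36, -0.26 and -0.175. At passage 8 the medians were 0.327 upwards and -0.457 downwards. The class required a called effect at passages 2 and 4, a choice that favours large values there. Lower medians at other passages therefore do not by themselves show a decline. The 2-cell-like list kept a median effect between -1.74 and -2.41 at passages 6 to 14, with 24 of 24 members called lower in the later mean. Cholesterol synthesis genes stayed at 0.375 to 0.77, with 25 of 26 called higher, and the ATF4 list at 0.60 to 1.30, with 21 of 22 called higher. The glycolysis list did not keep its sign. Its median effect was -0.16 over passages 2 and 4, and 17 of 21 members were called higher in the later mean. Nefm went further, from -1.47 over passages 2 and 4 to -2.89 later, as did H19, from -1.88 to -2.86.

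**Figure D5:**
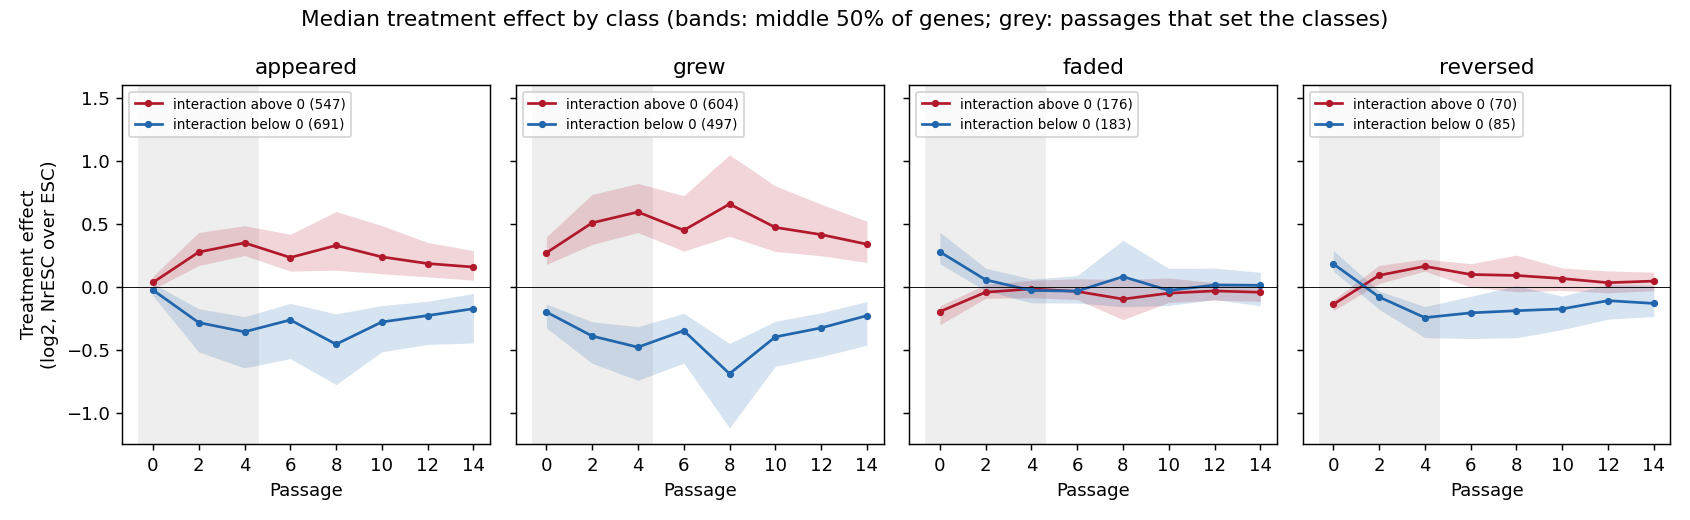
Median treatment effect (log2, NrESC over ESC) at each of the 8 passages for genes of the 4 classes, in red where the interaction is above 0 and in blue where it is below 0; bands hold the middle 50% of genes and the grey area marks the passages that set the classes. Outside the grey area the medians of the appeared and grew classes keep their sign at every passage, and the faded class lies near 0.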

How the data were processed

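The authors deposited a table of expected counts for gene symbols, without normalization; its column names carry the form that RSEM gives to its gene results. Of these values 0.837% were fractional and all were rounded. The submitters' processing notes also name STAR, Cufflinks 2.2.1, HTSeq 0.12.4, DESeq2 and edgeR with the mm9 build, without the role of each. Trimming, annotation and strand setting are not given in the sources used here, so overlapping and antisense genes cannot be separated, and near-identical copies (Zscan4, Usp17l, processed pseudogenes) depend on how RSEM split their reads. A deposited table of TPM was not used.

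Of 24890 genes, 15036 passed edgeR's filterByExpr (minimum count 10). A quasi-likelihood model (edgeR 4.0.16 in R 4.3.3) with TMM scaling and a mean for each of the 16 groups was fitted to all 32 libraries, so they share 1 estimate of the spread (16 residual degrees of freedom). Benjamini-Hochberg adjustment ran across every gene tested, with a threshold of 0.05. CPM used TMM library sizes. Libraries with the same replicate number did not deviate together (correlations of -0.093 to 0.097 over 120 pairs of groups), so the numbers were not used as pairs. The test with the passage as the unit used the same edgeR quasi-likelihood method on counts summed over the 2 libraries of each group. Named genes were the 8 highest and 8 lowest called interactions with a mean of at least 1 log2 CPM and 1 sign at passages 2 and 4, the 4 largest of each class and direction, and the 3 smallest p values of each of the 28 gene lists, passing over placeholder symbols in the former parts; others are said to be chosen after their values were seen. The comparison and the lists were chosen with earlier results of these data known. Alternatives were another scaling, filters, DESeq2 1.42.0, a 1.2-fold requirement, subsets of libraries and a replicate block. Sequences come from RefSeq tables of GRCm38.p6, with coordinates of that build only. A few genes chosen by this rule are left out of the text.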

Additional observations from a re-analysis of the deposited data

Results flagged for a closer look

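The change from passage 0 differed between the arms for 1647 genes in the direction of NrESC and 1735 genes in the direction of ESC, by the interaction test of the model over libraries. With the passage as the unit the same test called 0 genes. In 8 named genes the treatment effect reversed sign as well, with interactions of -1.19 for Ptprv, -0.998 for Col22a1, -0.803 for Gpx3, -0.801 for Hoxb9, 0.567 for Fdps, 0.778 for Tlx2, 0.852 for Flrt1 and 0.886 for Ly6a. In the mean of passages 6, 10, 12 and 14 the effect was -0.69 for Ptprv, -0.54 for Gpx3, -0.43 for Hoxb9, -0.35 for Col22a1, 0.55 for Fdps and 0.43 for Tlx2, with the sign of passages 2 and 4. For Ly6a it was -0.50, with the sign of passage 0, and for Flrt1 it was -0.11 and not called (adjusted p 0.179, edgeR).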

How the results depend on the processing

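With the passage as the unit, 0 genes rose and 0 fell for the interaction, 7 and 0 for the effect at passage 0, and 1507 and 1216 for the effect over passages 2 and 4; later, 3605 rose and 3440 fell. That test has 1 passage 0 per arm, fewer degrees of freedom and another measure of spread. Its spread and its later effect include passage 8, which the later mean of the model over libraries leaves out. When a change beyond 1.2-fold was required, 115 genes rose and 241 fell for the interaction, 51 and 104 for passage 2 alone, 202 and 366 for passage 4 alone, and 20 and 45 for passage 4 against passage 2. Under the same requirement 415 rose and 398 fell in NrESC and 825 and 669 in ESC, while the treatment effect counted 322 and 221 at passage 0, 1709 and 1572 over passages 2 and 4, and 1788 and 1684 later. DESeq2 called 1295 and 1395 genes for the interaction, and 2686 of the 3382 genes in the same direction. The 12 libraries alone gave 1511 and 1387.

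With 1 library left out at a time the interaction called 1153 to 1708 genes higher and 1176 to 1701 lower, lowest without library 2 of passage 0 of NrESC. Against passage 0 alone, passage 2 gave 582 to 781 higher and 729 to 878 lower, while passage 4 gave 1377 to 1834 and 1442 to 1797. For passage 4 against passage 2 they were 488 to 911 and 486 to 821. For the change in NrESC they were 1722 to 2262 and 2347 to 3058, and in ESC 2521 to 3206 and 2923 to 3735. The treatment effect ranged over 1767 to 2031 and 1611 to 1903 at passage 0, 4353 to 4648 and 4354 to 4503 over passages 2 and 4, and 5078 to 5284 and 5054 to 5195 later. Counts moved by over 1.5 times at passage 2 without library 1 of passage 0 of ESC (582 higher), and for passage 4 against passage 2 without library 2 of passage 4 of NrESC (488 and 486).

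A replicate block, whose numbers do not pair the samples, gave 1630 genes higher and 1696 lower and moved no count by over 1.5 times. No gene of the 108 named changed the sign of its interaction under the alternatives run. Of the 105 that were called, 47 lost their call when 1.2-fold was required, and all 105 lost it with the passage as the unit. Depth limits the genes under about 1 CPM, where few counts stand behind a value.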

Other observations

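Ddit3, which encodes CHOP, stood apart at passage 8 in NrESC, with 90.7 and 93.3 CPM, against 9.09 to 22.2 CPM in the other NrESC libraries and 4.28 to 13.6 CPM in ESC. Egr1 stood at 62.2 and 65.9 CPM in ESC and 10.1 and 11.1 CPM in NrESC at passage 2, and between 0.197 and 1.31 CPM in the other 28 libraries. Both were chosen after their values were seen, and what set these libraries apart was not tested.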
